A study of Homo sapiens with 24 samples.

Results

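PML, SP100, SP110, SP140, SP140L and DAXX code for proteins of the PML nuclear body and for the speckled protein family built around SP100. The 6 genes were chosen by name, with earlier results of these data known. They were found by their Ensembl identifiers among 39321 rows of a table of raw read counts. All 6 were counted in the 12 libraries labelled A-498, and 5 were counted in the 12 libraries labelled 786-0, where the SP110 row stood at 0 in every library and is not measured.

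PML bodies are small round structures of the cell nucleus whose shell is made of the PML protein. PML carries the small modifier SUMO, and proteins that bind SUMO or carry it are held in the body. SP100 is the other permanent resident of the body, and DAXX is held there as a chaperone that lays down the histone variant H3.3 together with ATRX. SP110, SP140 and SP140L are relatives of SP100 that share with it a SAND domain, a DNA-binding fold, and several forms of the family also carry a PHD finger and a bromodomain, which read histone marks. SP140 is best known from leukocytes. Interferons are known to raise PML and SP100, and the bodies take part in the defence against DNA viruses.

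The cells were clear cell renal cell carcinoma lines, for which the labels give the names A-498 and 786-0. Each line had 4 groups of 3 libraries: cells given a control siRNA (Cnsi) or a pool of siRNAs against PD-L1 (PD-L1si), each without IFNγ or with it (Cnsi IFNg and PD-L1si IFNg). Every culture was transfected, with each siRNA at 20 nM for 24 hours, and IFNγ followed at 50 ng/mL for another 24 hours. The study also made sublines with a Renilla luciferase gene, and the labels do not say whether these were the cells sequenced. The genotype labels speak of a PD-L1 knockout, but the treatment was a transient siRNA, and the extraction notes list 3 groups, without PD-L1si, where the labels give 4. A single pool was set against a single control, so loss of PD-L1 and other effects of the pool cannot be told apart. The study sequenced its lines on different instruments, so a difference between lines cannot be told apart from one between instruments, and the names of the lines on the libraries go against the study's own tables per line. The names are therefore used here as labels only. Nothing in the labels says that the 3 libraries of a group came from separate cultures, and the p-values then measure only the spread between these libraries.

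Library totals ran from 19256316 to 27907526 counts in A-498 and from 26807875 to 30350461 in 786-0. CD274, the gene of PD-L1, rose with IFNγ by 5.25 (log2) in A-498 and 3.89 in 786-0, and PD-L1si lowered it under IFNγ by log2 fold changes of -2.81 and -0.94. The renal markers PAX8, VIM, KRT8 and KRT18 were counted in every library, while the PAX2 row was at 0 in every 786-0 library and is not measured there. Of 12 leukocyte markers 10 were in the table, 9 of them with any count in A-498 and 8 in 786-0. Their summed level was 0.208 to 0.851 CPM in A-498 and 1.22 to 2.24 CPM in 786-0. CPM are each count divided by the total of its library, which was scaled for single genes and unscaled for marker sums. PTPRC, which defines leukocytes, had 0 to 1 counts per library in A-498 and 0 to 3 in 786-0, and CD2 stood at 0 in all of A-498. The CD3D and ITGAX rows were at 0 in all of 786-0 and are not measured there. The summed level of the 8 renal markers, 7 of them counted in 786-0, moved with IFNγ, from 4268 to 4421 CPM in A-498 Cnsi up to 4947 to 5015 in Cnsi IFNg, and from 3816 to 4107 CPM in 786-0 Cnsi up to 5608 to 6176 in Cnsi IFNg, and its part in the results was not tested.

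SP110, SP140, SP140L and SP100 lie in this order within a single cluster on chromosome 2 (GRCh38, GENCODE annotation). SP110 (ENSG00000135899) runs on the minus strand at chr2:230165186-230225729. SP140 (ENSG00000079263) runs on the plus strand at chr2:230203110-230313215, so the pair overlaps head to head, with 170 exon bases in common, which is 3.05 percent of the exon bases of SP140. SP140L (ENSG00000185404) follows at chr2:230327184-230403732 and SP100 (ENSG00000067066) at chr2:230415942-230545606, both on the plus strand. PML (ENSG00000140464) lies on the plus strand at chr15:73994673-74047827, and DAXX (ENSG00000204209) on the minus strand at chr6:33318558-33323016. DAXX shares 441 exon bases, 14.3 percent of its exons, with another gene model on the same strand, and SP110 shares 17.8 percent of its exon bases with a long noncoding RNA on the opposite strand.

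Promoter sequence was taken from RefSeq (GRCh38.p14) for the 4 genes of the SP cluster, as the 250 bases before each transcript start in the direction of the gene. The windows are shown because 3 of these genes moved together with IFNγ. Capitals mark matches, on either strand, to the interferon-type element GAAANNNGAAA and to the shorter AAGTGAAA that can lie within it. The forms GAAANNNGAAA and AAGTGAAA were added after the windows had been seen. The windows were, in this order, chr2:230415951-230416200, chr2:230326943-230327192, chr2:230219985-230220234, chr2:230225637-230225886 and chr2:230225486-230225735.

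SP100: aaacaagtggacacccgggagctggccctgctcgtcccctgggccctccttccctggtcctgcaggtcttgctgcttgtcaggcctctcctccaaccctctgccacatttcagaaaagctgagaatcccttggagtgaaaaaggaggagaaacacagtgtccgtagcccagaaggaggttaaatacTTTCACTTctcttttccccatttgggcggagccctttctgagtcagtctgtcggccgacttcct
SP140L: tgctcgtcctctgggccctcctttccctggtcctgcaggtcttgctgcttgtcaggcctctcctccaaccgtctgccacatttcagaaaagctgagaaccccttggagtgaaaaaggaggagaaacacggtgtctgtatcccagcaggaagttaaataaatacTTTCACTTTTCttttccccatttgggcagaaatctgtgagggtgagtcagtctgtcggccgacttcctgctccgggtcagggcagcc
SP110 inner start: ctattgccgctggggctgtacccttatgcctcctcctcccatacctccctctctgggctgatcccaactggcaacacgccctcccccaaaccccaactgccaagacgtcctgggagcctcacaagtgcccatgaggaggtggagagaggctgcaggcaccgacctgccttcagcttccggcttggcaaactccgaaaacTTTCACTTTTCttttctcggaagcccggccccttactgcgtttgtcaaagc
SP110 outer start: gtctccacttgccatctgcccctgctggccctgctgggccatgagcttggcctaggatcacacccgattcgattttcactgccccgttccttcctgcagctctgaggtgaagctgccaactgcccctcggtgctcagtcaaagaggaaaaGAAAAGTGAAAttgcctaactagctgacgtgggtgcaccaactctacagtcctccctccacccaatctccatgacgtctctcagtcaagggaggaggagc
SP140: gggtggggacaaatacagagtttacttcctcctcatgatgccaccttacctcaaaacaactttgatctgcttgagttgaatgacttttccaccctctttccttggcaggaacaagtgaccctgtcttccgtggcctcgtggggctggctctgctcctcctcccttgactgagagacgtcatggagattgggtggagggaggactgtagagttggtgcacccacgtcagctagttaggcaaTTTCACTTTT

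The SP100 and SP140L windows are close copies, with 207 of 222 aligned bases identical (93.2 percent). SP140L holds TTTCACTTTTC, the reverse strand form of the element, between positions -87 and -77 (the transcript start is position 0). In SP100 the copy of this place reads TTTCACTT followed by other bases, at -64 to -57. The inner start of SP110 has TTTCACTTTTC at -51 to -41. The outer start of SP110 lies 100 bases from the start of SP140 on the other strand, the 2 windows share 99 bases, and the GAAAAGTGAAA of SP110 at -100 to -90 is the same stretch of DNA as the element that ends at the SP140 start. A further SP100 start held no match. None of these windows held the usual interferon element with 2 free bases, GAAANNGAAA. Among 35116 RefSeq promoters, counted from 250 bases before to 50 bases after the start, GAAANNNGAAA was found in 2.86 percent, AAGTGAAA in 1.62 percent and GAAANNGAAA in 3.57 percent. Both GAAANNNGAAA and AAGTGAAA were added after the windows had been seen, so these shares are no test of the matches found here. A match of letters is a description and not a bound site.

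IFNγ raised PML, SP100 and SP140L in both lines and SP110 in A-498, where it was measured. In A-498 Cnsi cells 4 of the 6 genes rose and 1, SP140, fell. Of all 20916 genes tested there 18.2 percent rose and 18.5 percent fell. In 786-0 Cnsi cells 3 of 5 rose and 0 fell, beside 11.1 percent and 7.39 percent of 21209 genes. A gene counted as risen or fallen when the adjusted p-value of edgeR's quasi-likelihood test was under 0.05 and the log2 fold change was over 0.5 in size. The members' median log2 fold change was 1.52 in A-498 and 1.05 in 786-0, and the median of all genes tested was -0.03 and 0.00. In bulk RNA, more RNA per cell and more cells that express a gene cannot be told apart.

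PML, the protein of the shell, had 95.9, 94.6 and 101 CPM in the A-498 Cnsi libraries and 302, 290.2 and 319.8 CPM in the Cnsi IFNg libraries. In 786-0 it had 196, 189.8 and 189 CPM without IFNγ and 568, 605 and 592 CPM with it. The libraries with and without IFNγ were far apart in both lines. The mean rose from 97.1 ± 3.19 to 304 ± 14.9 CPM (SD, n = 3) in A-498, a log2 fold change of 1.65 ± 0.0507 (SE; adjusted p = 2.21e-24 by edgeR). In 786-0 the mean rose from 191 ± 3.86 to 588 ± 18.6 CPM, by 1.62 ± 0.0455 (edgeR adjusted p = 4.03e-20).

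SP100, the other resident protein of the body, had 72.3, 75.4 and 70.8 CPM in A-498 Cnsi and 358, 344 and 348 CPM in Cnsi IFNg. In 786-0 the values were 54.6, 54.5 and 57.3 CPM without IFNγ and 153, 169 and 162 CPM with it. Every IFNγ library of A-498 stood above every IFNγ library of 786-0. The log2 fold change was 2.27 ± 0.0428 in A-498 (edgeR adjusted p = 1.07e-31) and 1.54 ± 0.0534 in 786-0 (3.80e-18), which as a ratio of means is 4.81-fold and 2.91-fold.

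SP110, a nuclear receptor coactivator of the family, showed the highest fold change among the members. It had 17.7, 20.2 and 17.7 CPM in A-498 Cnsi and 174, 169 and 181 CPM in Cnsi IFNg, with no overlap of the groups. The mean went from 18.5 ± 1.42 to 175 ± 5.95 CPM (SD, n = 3), a ratio of 9.45 and a log2 fold change of 3.24 ± 0.0604 (edgeR adjusted p = 1.58e-32). Its row was among 1475 rows that had more than 1000 counts in A-498 and 0 in all 786-0 libraries. Of these rows, 1.29 percent carried the identifier version of the GENCODE release used for names, against 70.9 percent of the 10971 such rows counted in both lines. A value of 0 for SP110 in 786-0 is therefore given as not measured, and the cause of these rows was not tested.

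SP140L, a relative of SP140 whose function is little known, had 16.3, 17.1 and 16.9 CPM in A-498 Cnsi and 46.1, 43.0 and 43.9 CPM in Cnsi IFNg. In 786-0 it had 17.0, 17.2 and 19.2 CPM without IFNγ and 35.1, 36.3 and 39.4 CPM with it. The lines began at about the same level, and the groups with and without IFNγ did not overlap in either. The log2 fold change was 1.40 ± 0.0652 in A-498 (edgeR adjusted p = 3.82e-20) and 1.05 ± 0.0635 in 786-0 (4.40e-13).

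SP140 was near the limit of what these libraries could count. It had 47, 25 and 36 counts in the A-498 Cnsi libraries, 23, 17 and 20 in Cnsi IFNg, 23, 25 and 19 in PD-L1si, and 10, 11 and 14 in PD-L1si IFNg. In 786-0 the counts were 27, 28 and 27 in Cnsi, 25, 42 and 33 in Cnsi IFNg, 16, 36 and 37 in PD-L1si, and 27, 30 and 39 in PD-L1si IFNg. With IFNγ the mean in A-498 Cnsi cells fell from 1.43 ± 0.440 to 0.862 ± 0.176 CPM (SD, n = 3), a log2 fold change of -0.75 ± 0.255 (edgeR adjusted p = 0.00988), although the 2 groups were only just apart. The call was lost without Cnsi replicate 1 (-0.51, edgeR adjusted p = 0.115), without Cnsi IFNg replicate 2 (-0.57, 0.0780) and in DESeq2 (-0.73, 0.0512). In 786-0 the log2 fold change was 0.42 ± 0.268 (edgeR adjusted p = 0.225). The leukocyte markers, which would mark cells known to hold SP140, had a summed level of 0.403 to 0.851 CPM in A-498 Cnsi and 0.441 to 0.767 CPM in Cnsi IFNg, ranges that overlap, and their part in the SP140 values was not tested.

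DAXX, the H3.3 chaperone, had 45.5, 44.6 and 43.3 CPM in A-498 Cnsi and 45.2, 42.7 and 45.1 CPM in Cnsi IFNg. In 786-0 the values were 63.5, 59.1 and 62.4 CPM without IFNγ and 64.2, 64.6 and 66.8 CPM with it. The A-498 groups overlapped, and in 786-0 they were just apart. The log2 fold change was -0.00 ± 0.0518 in A-498 (edgeR adjusted p = 0.941), with a sign that turned to positive under other scalings, and 0.08 ± 0.0493 in 786-0 (0.222).

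**Figure D1:**
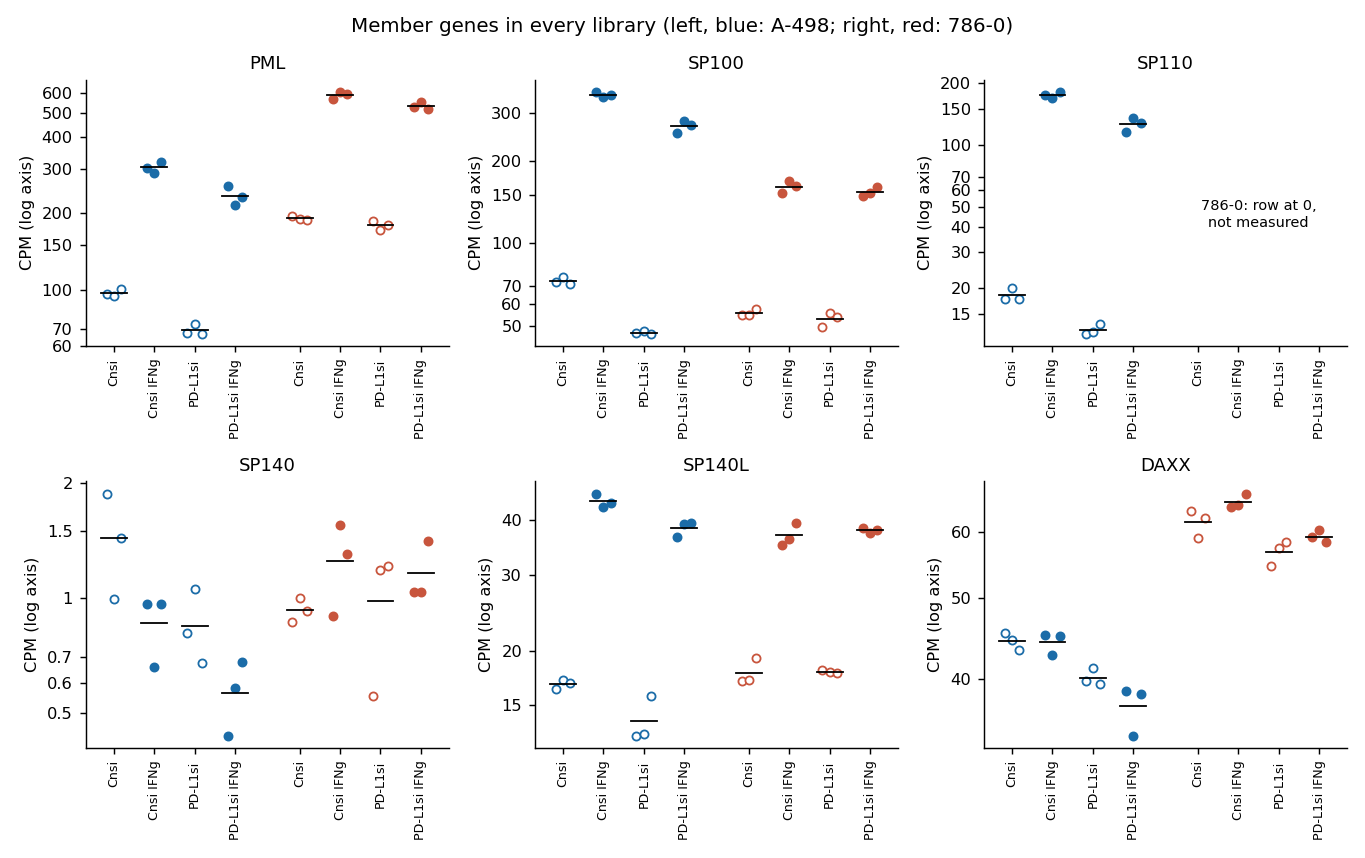
Level of each member gene in CPM (log axis, with its own range in each panel) in every library, with the 4 groups of A-498 in blue on the left and those of 786-0 in red on the right. Points are libraries, filled with IFNγ and empty without it, and bars are group means (n = 3). PML, SP100 and SP140L step up with IFNγ in both lines, SP110 does so in A-498, and DAXX and SP140 do not.

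Per kilobase of exon, which allows the genes to be set beside each other, the order of the members changed with IFNγ. In A-498 Cnsi cells DAXX was highest at 14.4 ± 0.353 CPM per kb (SD, n = 3), followed by PML at 7.66 ± 0.252, SP100 at 5.15 ± 0.164, SP140L at 2.97 ± 0.0717, SP110 at 1.73 ± 0.133 and SP140 at 0.257 ± 0.0788. No neighbours in this order lay within their SDs of each other. In Cnsi IFNg cells SP100 had 24.8 ± 0.531 and PML 24.0 ± 1.18 CPM per kb, which differed by less than their spread. SP110 came next at 16.4 ± 0.557, above DAXX at 14.4 ± 0.450, SP140L at 7.84 ± 0.283 and SP140 at 0.154 ± 0.0314.

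In 786-0 Cnsi cells DAXX was again highest with 20.0 ± 0.744 CPM per kb, then PML with 15.1 ± 0.305, SP100 with 3.92 ± 0.113, SP140L with 3.15 ± 0.219 and SP140 with 0.167 ± 0.0123. With IFNγ PML led with 46.4 ± 1.46 CPM per kb, ahead of DAXX with 21.1 ± 0.441, SP100 with 11.4 ± 0.557, SP140L with 6.53 ± 0.392 and SP140 with 0.224 ± 0.0595. PML was thus at about the level of SP100 in A-498 under IFNγ and well above it in 786-0. These levels use all exon bases annotated for a gene, which can be more than a single transcript holds, and CPM were scaled within each line.

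The same genes rose with IFNγ in PD-L1si cells. In A-498 4 of 6 members rose and 0 fell, beside 17.6 and 15.9 percent of all genes. In 786-0 3 of 5 rose and 0 fell, beside 11 and 7.45 percent. The log2 fold changes in A-498 were 3.33 ± 0.0659 for SP110, 2.51 ± 0.0446 for SP100, 1.76 ± 0.0521 for PML and 1.47 ± 0.0684 for SP140L. The values in 786-0 were 1.56 ± 0.0456 for PML, 1.54 ± 0.0534 for SP100 and 1.08 ± 0.0632 for SP140L, and all of these had edgeR adjusted p-values under 0.05. DAXX had log2 fold changes of -0.11 ± 0.0538 and 0.06 ± 0.0496, and SP140 of -0.57 ± 0.323 and 0.23 ± 0.266, in A-498 and 786-0 in that order, none past the threshold.

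PD-L1si lowered some members in A-498 cells that had no IFNγ. There 3 of 6 members fell and 0 rose, beside 5.6 percent and 2.87 percent of all genes tested, and the members' median log2 fold change was -0.53 against 0.00 for all genes. SP100 fell from 72.8 ± 2.32 CPM (SD, n = 3) to 47.2 ± 0.534 CPM, with PD-L1si values of 47.2, 47.7 and 46.6 CPM and a log2 fold change of -0.63 ± 0.0466 (edgeR adjusted p = 2.78e-13). SP110 had 12.0, 12.3 and 13.4 CPM in PD-L1si, below every Cnsi library, and fell by 0.56 on the log2 scale (SE 0.0748; edgeR adjusted p = 1.70e-07). Without Cnsi replicate 2 its log2 fold change was -0.50, just under the fold threshold.

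PML in the PD-L1si libraries of A-498 had 67.3, 73.3 and 66.8 CPM, again below every Cnsi library. Its log2 fold change of -0.49 ± 0.0535 (edgeR adjusted p = 4.21e-09) missed the fold threshold and passed it without Cnsi replicate 1 (-0.50), without Cnsi replicate 2 (-0.51) or without PD-L1si replicate 2 (-0.52). SP140L had a log2 fold change of -0.28 ± 0.0738 (edgeR adjusted p = 0.00307) and DAXX of -0.15 ± 0.0516 (0.0263), both under the fold threshold. SP140 passed the threshold with -0.77 ± 0.247 (edgeR adjusted p = 0.0132), but its groups overlapped. That call was lost without Cnsi replicate 1 (-0.54, edgeR adjusted p = 0.150), without PD-L1si replicate 1 (-0.73, 0.0524), without PD-L1si replicate 3 (-0.62, 0.0923) and in DESeq2 (-0.76, 0.0597). By adjusted p alone 6 of 6 members were lower, beside 18.1 percent of all genes.

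Under IFNγ, which raises PD-L1 itself, PD-L1si moved 0 of 6 members past the threshold in A-498, where 5.75 percent of all genes fell and 4.36 percent rose. By edgeR's adjusted p alone 5 of 6 were lower, beside 17.8 percent of all genes, and 8713 of 20916 genes had an unadjusted p under 0.05. SP110 had 116, 135 and 128 CPM in PD-L1si IFNg, below each Cnsi IFNg library, with a log2 fold change of -0.47 ± 0.0489 (edgeR adjusted p = 8.48e-10). It passed the fold threshold at -0.52 without PD-L1si IFNg replicate 2. SP100 had 254, 279.8 and 270.0 CPM, also below each Cnsi IFNg library, with -0.39 ± 0.0405 (1.03e-09).

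PML had 256, 216 and 232 CPM in the PD-L1si IFNg libraries of A-498, with a log2 fold change of -0.37 ± 0.0491 (edgeR adjusted p = 1.71e-07). DAXX had 38.7, 34.2 and 38.4 CPM and a log2 fold change of -0.25 ± 0.0539 (0.000292), and SP140L had 36.6, 39.3 and 39.3 CPM and -0.21 ± 0.0591 (0.00545). SP140 had -0.60 ± 0.329 (0.157). The ratios of the PD-L1si IFNg to the Cnsi IFNg means were 0.722 for SP110, 0.765 for SP100, 0.771 for PML, 0.838 for DAXX and 0.867 for SP140L. All PD-L1si IFNg means of the 4 genes that rose stayed above the Cnsi means without IFNγ.

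In 786-0 PD-L1si moved 0 of 5 members past the threshold under IFNγ, beside 1.74 percent of genes that fell and 1.29 percent that rose. Without IFNγ it also moved 0 of 5, beside 1.63 and 1.19 percent. At an unadjusted p under 0.05 edgeR had 5552 of 21209 genes under IFNγ and 5235 without it. PML had 524, 549 and 517 CPM in PD-L1si IFNg against 568, 605 and 592 CPM in Cnsi IFNg, groups that did not overlap, with a log2 fold change of -0.15 ± 0.0451 (edgeR adjusted p = 0.0249), under the fold threshold. SP100 had 149, 153 and 161 CPM, a range that overlaps that of Cnsi IFNg, and a log2 fold change of -0.06 ± 0.0515 (0.483). SP140L had 0.04 ± 0.0600, DAXX -0.14 ± 0.0495 and SP140 -0.10 ± 0.260, with adjusted p of 0.737, 0.0669 and 0.852 by edgeR. Without IFNγ the log2 fold changes were -0.12 ± 0.0493 for DAXX, -0.09 ± 0.0460 for PML, -0.07 ± 0.0552 for SP100, 0.09 ± 0.273 for SP140 and 0.01 ± 0.0665 for SP140L.

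**Figure D2:**
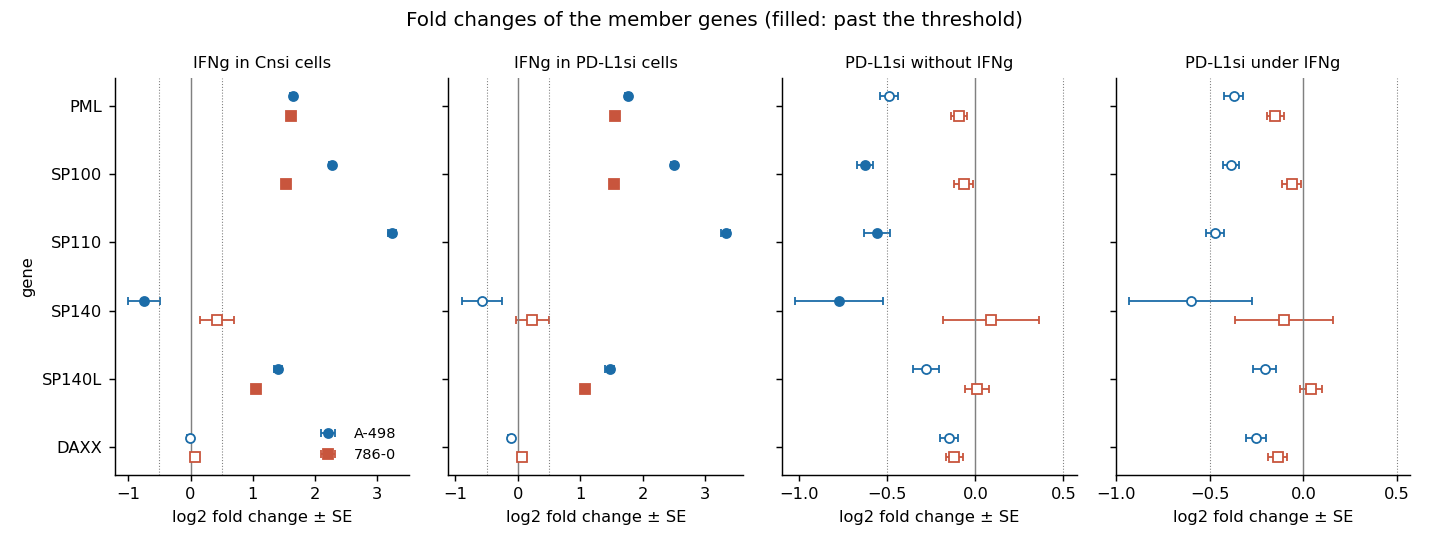
Log2 fold change of each member in 4 comparisons (horizontal axis, with its own range in the IFNγ and the PD-L1si panels), with SE from the edgeR fit. Blue circles are A-498 and red squares 786-0, filled where past the threshold, and dotted lines stand at 0.5 either side of 0. In A-498 every point of the PD-L1si panels lies left of 0, and in 786-0 the points lie between -0.15 and 0.09.

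Whether the IFNγ effect itself differed with PD-L1si was tested as an interaction. In A-498 0 of 6 members passed, beside 2.45 percent of all genes and 4479 genes at an unadjusted p under 0.05. SP100 had an interaction of 0.24 ± 0.0618 (log2; edgeR adjusted p = 0.00902), so its IFNγ effect was more positive with PD-L1si by less than the fold threshold. The other interactions ran from -0.10 for DAXX to 0.17 for SP140, with adjusted p-values of 0.372 or more by edgeR. In 786-0 0 of 5 passed, beside 0.099 percent of all genes and 1722 genes at an unadjusted p under 0.05, with interactions from -0.19 ± 0.377 for SP140 to 0.03 ± 0.0896 for SP140L.

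The IFNγ effect in Cnsi cells differed between the lines for 2 of 5 members, beside 24 percent of the 21584 genes tested in the model of all libraries. The difference, taken as 786-0 minus A-498, was -0.80 ± 0.0756 (log2) for SP100 (edgeR adjusted p = 1.07e-13), whose response was smaller in 786-0. For SP140 it was 1.09 ± 0.377 (0.0153), and this call was lost without A-498 Cnsi replicate 1 (0.86, edgeR adjusted p = 0.0861), without A-498 Cnsi IFNg replicate 2 (0.92, 0.0622) and without 786-0 Cnsi IFNg replicate 2 (0.89, 0.0690). SP140L had a difference of -0.43 ± 0.0951 (0.000177), under the fold threshold. PML had -0.10 ± 0.0752 (edgeR adjusted p = 0.299) and DAXX 0.00 ± 0.0784 (0.986).

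The effect of PD-L1si under IFNγ differed past the threshold for 0 of 5 members, beside 4.57 percent of genes and 5039 genes at an unadjusted p under 0.05. The differences were 0.33 ± 0.0727 for SP100 (edgeR adjusted p = 0.000789), 0.25 ± 0.0886 for SP140L (0.0477) and 0.23 ± 0.0739 for PML (0.0291). CD274, the target, also differed by 1.87 ± 0.0913, as its level was lowered less in 786-0. DAXX had 0.12 ± 0.0800 (0.389) and SP140 0.51 ± 0.428 (0.536).

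Of the neighbours of the SP cluster, FBXO36 rose with IFNγ in A-498 and DNER in both lines. Among the 3 nearest tested protein-coding genes on each side, FBXO36 rose by 0.55 ± 0.121 in A-498 and had 0.31 ± 0.136 in 786-0, where it did not pass. TRIP12, CAB39, ITM2C and PSMD1 had log2 fold changes between -0.49 (ITM2C) and 0.42 (CAB39) in A-498, none past the fold threshold. DNER, a Notch ligand 450631 bases before the cluster, rose by 4.10 ± 1.08 in A-498 and 2.11 ± 0.204 in 786-0, and PD-L1si under IFNγ lowered it by log2 fold changes of -2.43 ± 0.662 and -0.99 ± 0.173. Of the cluster, SP140 lies between SP110 and SP140L, which both rose in A-498.

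**Figure D3:**
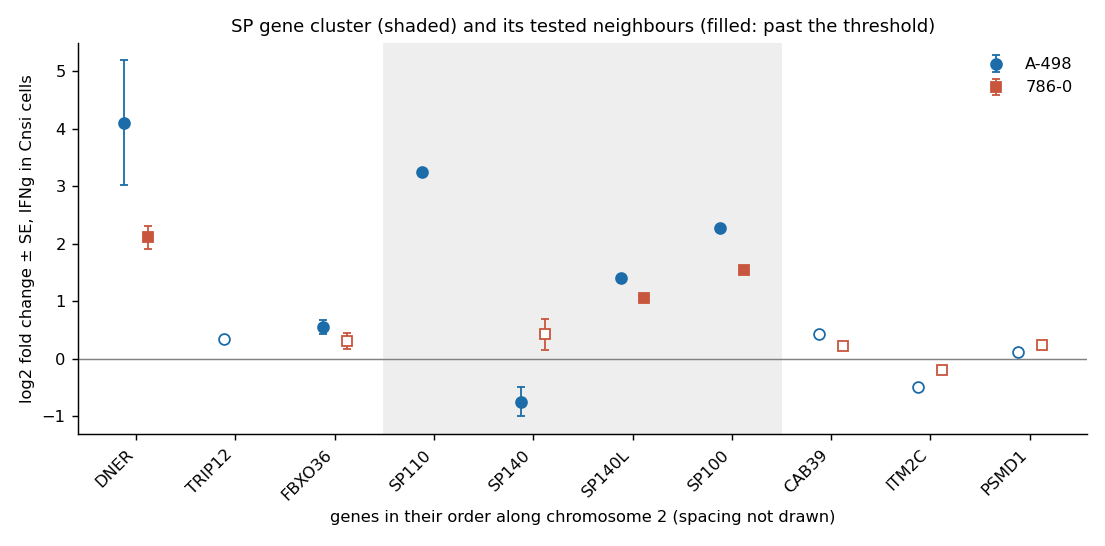
Log2 fold change with IFNγ in Cnsi cells (vertical axis, with SE) for the 4 genes of the SP cluster (shaded) and the 3 tested protein-coding genes on each side, in their order along chromosome 2 and without their spacing. Blue circles are A-498, red squares 786-0, filled where past the threshold. SP110, SP140L and SP100 stand well above the nearest genes outside the cluster in A-498, and DNER, further out, stands as high with a wide error.

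PML has a close neighbour in STOML1, whose nearest edge lies 51 bases away and which codes for a stomatin-like membrane protein. STOML1 had a log2 fold change of 0.49 ± 0.0699 with IFNγ in A-498, under the fold threshold, and rose by 0.93 ± 0.0680 in 786-0. LOXL1, an enzyme that cross-links elastin, fell in each line (log2 -0.82 in A-498, -0.69 in 786-0). CD276, STRA6, SEMA7A and UBL7 shared no direction past the threshold between the lines: CD276 fell in A-498 (-0.60), STRA6 rose in 786-0 (1.31), and SEMA7A rose in A-498 (1.05) and fell in 786-0 (-0.71). Beside DAXX, ZBTB22 at 616 bases had 0.00 ± 0.0715 in A-498 and 0.07 ± 0.0803 in 786-0. TAPBP, the peptide-loading factor tapasin 4274 bases away, rose by 1.01 ± 0.0431 in A-498 and was not tested in 786-0. RGL2 and KIFC1 fell in A-498 (-0.63 and -0.88) and had -0.08 and -0.19 in 786-0, while PHF1 (0.75, past the threshold) and CUTA (-0.32) were tested in A-498 alone.

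Genes linked to PML bodies, genes with domains of the SP100 family and interferon transcription factors were followed in 6 lists. Of 18 genes for SUMO conjugation and removal, which builds and takes down the SUMO marks that hold bodies together, 1 (SENP6, 0.57) rose with IFNγ in A-498 and 0 fell, with a median log2 fold change of 0.08, beside 18.2 percent of all genes that rose and 18.5 percent that fell. In 786-0, of 14 tested, SUMO2 rose by 0.69 and SENP7 fell by 0.77 on the log2 scale, beside 11.1 and 7.39 percent of all genes. Under PD-L1si with IFNγ the protease gene SENP5 was the member of this list past the threshold. It had -0.72 ± 0.0581 in A-498 (edgeR adjusted p = 1.81e-12) and -0.53 ± 0.0735 in 786-0 (1.24e-05), beside 5.75 percent and 1.74 percent of all genes that fell. With PD-L1si without IFNγ SENP5 had -0.38 ± 0.0575 in A-498, under the fold threshold, and -0.51 ± 0.0726 in 786-0.

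Of 9 genes linked to H3.3 deposition, 2 rose with IFNγ in A-498 and 2 fell, beside 18.2 and 18.5 percent of all genes. In 786-0 0 of 8 tested moved, beside 11.1 and 7.39 percent. The H3.3 genes themselves went apart in A-498, with H3-3A at -1.24 ± 0.0481 and H3-3B at 0.54 ± 0.0387. H3-3A has near-identical copies that could share its reads, and their part in these values was not tested. ASF1A and ASF1B, the paralogous H3 chaperones, had 0.56 ± 0.0700 and -1.12 ± 0.0531. ATRX, which works with DAXX, had 0.11 ± 0.0511 (edgeR adjusted p = 0.0587). UBN2, a subunit of the HIRA complex, was higher with PD-L1si under IFNγ by 0.68 ± 0.0599 in A-498. It had 0.24 ± 0.0872 in 786-0, where it did not pass. With PD-L1si without IFNγ UBN2 had 0.74 ± 0.0562 in A-498 and 0.31 ± 0.0859 in 786-0, where it again did not pass.

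Of 16 client proteins of the bodies, 7 rose with IFNγ in A-498 and 1 fell, beside 18.2 and 18.5 percent of all genes, and the list median was 0.34. The 7 were CREBBP, SIRT1, NBN, RAD50, RB1, MORC3 and ISG20, and MRE11, which forms a DNA repair complex with NBN and RAD50, fell with a log2 fold change of -1.02 ± 0.0659. In 786-0 2 of 12 tested rose, MORC3 and ISG20, beside 11.1 percent of all genes. ISG20, an exonuclease raised by interferons, rose by 5.80 ± 0.179 and 3.33 ± 0.0999 in A-498 and 786-0. MORC3, an ATPase that sits in PML bodies, rose by 1.03 ± 0.0514 and 0.67 ± 0.0580. With PD-L1si under IFNγ ISG20 fell in A-498 with -0.89 ± 0.0660 and had -0.07 ± 0.0717 in 786-0.

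IRF1, STAT2 and IRF9, transcription factors of the interferon response, rose in both lines. IRF1 had log2 fold changes of 4.62 ± 0.0408 and 4.77 ± 0.0507, STAT2 of 2.48 ± 0.0427 and 2.37 ± 0.0601, and IRF9 of 1.01 ± 0.221 and 1.30 ± 0.230. Under PD-L1si with IFNγ 0 of these 3 passed in A-498, beside 5.75 percent of all genes that fell and 4.36 percent that rose. In 786-0 0 passed, beside 1.74 and 1.29 percent. Under the fold threshold in A-498, IRF1 had -0.20 ± 0.0374 (edgeR adjusted p = 3.83e-05) and STAT2 -0.21 ± 0.0410 (0.000101). IRF9 had 0.17 ± 0.189 there (0.531). Of the other SAND domain genes, 3 were tested in A-498, where GMEB1 fell with -0.84 ± 0.0906, and 2 in 786-0, where GMEB1 rose by 0.61 ± 0.0982. Of 4 TRIM genes that carry the same PHD and bromodomain pair as SP140, TRIM66 rose by 0.54 in A-498 and TRIM24 by 0.75 in 786-0. In the same comparison 18.2 percent of all genes rose in A-498 and 18.5 percent fell. In 786-0 11.1 percent rose and 7.39 percent fell.

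**Figure D4:**
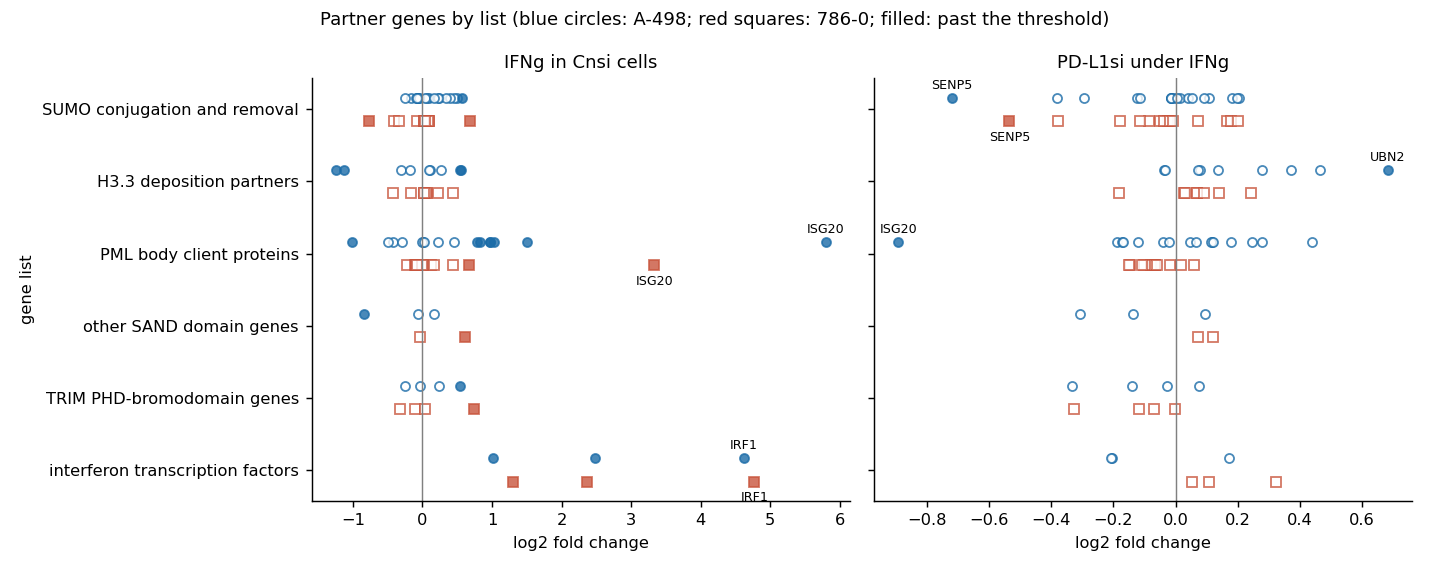
Log2 fold change (horizontal axis) of the tested genes reported from the 6 gene lists. IFNγ in Cnsi cells is on the left and PD-L1si under IFNγ on the right, each panel with its own range. Blue circles are A-498, red squares 786-0, filled where past the threshold. ISG20 and the interferon transcription factors stand to the right on the left panel, and SENP5 is the lowest gene of the SUMO list in each line on the right panel.

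The genes with a pattern most like each member were sought among 12590 genes with a mean of at least 1 CPM, by the root mean square difference of centred log2(CPM + 1) group means over the 8 groups. For PML they were OGFR (0.0601), PHF11 (0.0731) and KDM7A (0.103). For SP100 they were MDK (0.0807) and TRIM25 (0.0925), and for SP140L ELMO2 (0.0490), PSME2P1 (0.0581) and TRIM56 (0.0721). For SP110, over the 4 A-498 groups and 14963 genes, they were DTX3L (0.0524), PLSCR1 (0.0652) and SAMHD1 (0.0829). The members' own departures from their mean reached 1.09 for PML, 1.49 for SP100, 0.83 for SP140L and 1.86 for SP110. These are largest values and not root mean squares, and the search picked the smallest differences, so their small size is no result. DAXX hardly departed from its mean (0.15 at most), and its nearest genes were ARPC4, SMARCD1 and PNN-AS1. SP140, too low for a pattern of its own, lay nearest to S100A10, TMEM63B and PIWIL4-AS1.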

How the data were processed

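RNA of 24 libraries (2 labelled lines, 4 groups each, n = 3) was made into stranded mRNA libraries and sequenced. The authors demultiplexed the reads with bcl2fastq 2.19.0, trimmed them with Trimmomatic 0.36.6, aligned them to GRCh38 with HISAT2 2.1.0 and counted them over exons of GENCODE 33 genes with featureCounts 1.6.3, dropping reads of low mapping quality. The deposited values are raw counts, with no filter or normalization. Reads shared by near-identical genes can be lost in such counts.

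Groups were taken from the labels. Names and positions came from GENCODE 44, in which 39148 of 39321 rows were matched by Ensembl identifier. Genes whose counts summed to at least 10 in a group were fitted in R 4.3.3 with edgeR 4.0.16 (TMM, robust quasi-likelihood fit, legacy form), the 12 libraries of each line together, and all 24 for the difference between lines, without rows at 0 in a line. Adjusted p-values are Benjamini-Hochberg over all genes tested. CPM were scaled with the TMM factors of the line, apart from the marker sums, which used unscaled library totals. Replicates differed beyond sampling noise (chi-square per degree of freedom 1.63 to 24.3), so none was counted as a duplicate. Alternatives included DESeq2 1.42.0.

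The members and lists were chosen with earlier results of these data known. The text names every member in each comparison, list genes that moved the same way with IFNγ in both lines or passed the threshold with PD-L1si under IFNγ, the lowest or highest of a list, and the 3 tested protein-coding neighbours on each side. Other list genes past the threshold were named after their values were seen. A few genes and a sequence element are not reported here.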

Additional observations from a re-analysis of the deposited data

Results flagged for a closer look

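The effects of the same treatment differed, by a test of the difference itself, for the following genes. IRF1 had an interaction of siRNA and IFNγ in A-498 of 0.65 ± 0.0595 (log2, SE; edgeR adjusted p = 6.55e-10), its IFNγ effect being 4.62 in Cnsi cells and 5.28 in PD-L1si cells. PD-L1si lowered IRF1 in A-498 cells without IFNγ by a log2 fold change of -0.86 ± 0.0463 (edgeR adjusted p = 5.05e-17), and under IFNγ its value was -0.20 ± 0.0374 (3.83e-05). SEMA7A, a neighbour of PML, had an interaction of -1.05 ± 0.132 (5.62e-07) in A-498.

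Between the lines (786-0 minus A-498), the IFNγ effect in Cnsi cells differed by -0.80 ± 0.0756 for SP100 (edgeR adjusted p = 1.07e-13), by 1.09 ± 0.377 for SP140 (0.0153) and by -2.54 ± 0.202 for ISG20 (1.05e-16). The SP140 value rests on 17 to 47 counts per library. Of the other list genes it was more positive in 786-0 for GMEB1 (1.37 ± 0.139), H3-3A (1.19 ± 0.0712), ASF1B (0.88 ± 0.0813), SUMO2 (0.85 ± 0.0742) and TRIM24 (0.71 ± 0.0786), and more positive in A-498 for SIRT1 (-0.96 ± 0.0965), TRIM66 (-0.94 ± 0.128), SENP7 (-0.89 ± 0.128), RAD50 (-0.88 ± 0.146), CREBBP (-0.61 ± 0.112), SENP6 (-0.57 ± 0.0890) and H3-3B (-0.54 ± 0.0668). Of the neighbours of the members, the differences were -2.11 ± 1.07 for DNER (edgeR adjusted p = 0.0272), -1.84 ± 0.163 for SEMA7A, 0.62 ± 0.0810 for KIFC1 and 0.61 ± 0.103 for CD276. The target CD274 had -1.44 ± 0.131.

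The effect of PD-L1si under IFNγ on ISG20 differed between the lines by 0.83 ± 0.103 (edgeR adjusted p = 2.30e-08), with -0.89 in A-498 and -0.07 in 786-0. SEMA7A differed by 1.32 ± 0.174 (7.65e-08) and the target CD274 by 1.87 ± 0.0913 (1.15e-23). In these results line and instrument cannot be told apart.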

How the results depend on the processing

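PML, SP100, SP110 and SP140L kept their direction and their call with IFNγ under every alternative run. Counts of members past the threshold changed with the call rule: by adjusted p alone they were 5 for PD-L1si under IFNγ and 6 for PD-L1si without IFNγ in A-498, 1 for the interaction in A-498, 1 for PD-L1si under IFNγ in 786-0, and 3 for the difference between lines in PD-L1si under IFNγ. With a log2 fold change over 1 they were 0 for PD-L1si without IFNγ in A-498 and 1 for the difference between lines in IFNγ. SP140 with IFNγ in A-498 Cnsi cells also lost its call at that threshold. By adjusted p alone SP140L gained a call for the difference between lines in IFNγ (edgeR adjusted p = 0.000177). In DESeq2 SP140 lost its calls for IFNγ in Cnsi cells and for PD-L1si without IFNγ in A-498. Leaving out 1 library gave 4 to 5 members for IFNγ in Cnsi cells and 0 to 1 for PD-L1si under IFNγ in A-498, 2 to 4 for PD-L1si without IFNγ in A-498, and 1 to 2 for the difference between lines in IFNγ.

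Whether replicate numbers pair the libraries was not settled. Deviations of libraries with the same number correlated from -0.0964 to 0.248 in A-498 and from -0.322 to 0.268 in 786-0. Their mean correlation was 0.0499 in A-498 and 0.0280 in 786-0, against -0.0249 and -0.0136 for libraries with other numbers. With the replicate number as a block, 5 members passed for IFNγ in Cnsi cells, 0 for PD-L1si under IFNγ and 3 for PD-L1si without IFNγ in A-498, as without the block, and 3 for IFNγ in Cnsi cells in 786-0.

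A sign changed in fold changes that did not pass the threshold. DAXX with IFNγ in Cnsi cells of A-498 had 0.0079 in DESeq2, 0.0078 with RLE factors, 0.0012 with filterByExpr, 0.00018 without a filter and 0.0077 in a fit of only the 2 groups compared. The SP100 interaction in 786-0 had -0.0040 in DESeq2 and with RLE factors, -0.014 with filterByExpr and -0.018 among protein-coding genes. Without 1 library, DAXX with IFNγ ran from -0.017 to 0.026 (A-498, Cnsi), from -0.0092 to 0.077 (786-0, PD-L1si) and from -0.034 to 0.076 (difference between lines), and its interaction in 786-0 from -0.064 to 0.012. SP140 ran from -0.088 to 0.40 (IFNγ in PD-L1si), -0.30 to 0.085 (PD-L1si under IFNγ) and -0.086 to 0.38 (PD-L1si without IFNγ) in 786-0, and its interaction in A-498 from -0.064 to 0.38. The SP140L interaction ran from -0.0036 to 0.16 in A-498 and -0.027 to 0.077 in 786-0, and SP140L with PD-L1si without IFNγ in 786-0 from -0.023 to 0.067. SP100 ran from -0.10 to 0.0027 with PD-L1si without IFNγ in 786-0, and its interaction there from -0.065 to 0.038. The cause was not tested. At 10 to 47 counts per library SP140 has an SE of 0.247 to 0.428. Changes larger than the SE could also be missed at this depth. With PD-L1si under IFNγ in A-498, -0.60 ± 0.329 had an edgeR adjusted p of 0.157.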
